A study of Mus musculus with 2 samples.

Results

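C1qa, C1qb and C1qc encode the A, B and C chains of C1q, the recognition subunit of the classical complement pathway. The 3 genes were chosen by their symbols from 32285 gene rows. The rule used no measured value, but it was set with earlier results of these data known. The genes were described in single cells sorted for surface CD64, the high-affinity Fc gamma receptor, from the thymus of adult C57BL/6 mice (C57BL/6J in the series design). The mice carried no allele or treatment that the labels name, and the number of animals is not given in the sources used here. Of the 2 libraries, labelled 2021 and 2024, gene names were used for the 2021 library alone, so every gene value below is from 1 library and has no replicate. The 2024 library (2815 barcodes, median of 5312 UMIs) gave depth only. No test between cell classes was possible, and intervals cover counting error only.

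C1q is a bundle of collagen stalks ending in globular heads. Each of its arms is built from 1 A, 1 B and 1 C chain, and the heads bind antibody in immune complexes, apoptotic cells and other surfaces. Bound C1q activates the proteases C1r and C1s, which cleave C4 and C2 and so lead to the cleavage of C3. Unlike most complement proteins, which the liver makes, C1q is made largely by tissue macrophages and dendritic cells, and it also tags dying cells for uptake. Uptake of dying thymocytes is a known task of thymic macrophages.

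In GRCm38 the genes lie side by side on the minus strand of chromosome 4, within 18675 bases between Ephb2 and Epha8. C1qb (ENSMUSG00000036905) spans chr4:136880129-136886187, C1qc (ENSMUSG00000036896) chr4:136889804-136893065 and C1qa (ENSMUSG00000036887) chr4:136895917-136898803. Gaps of 3616 bases (C1qb to C1qc) and 2851 bases (C1qc to C1qa) separate them. Each has 3 exons, 2 of them coding, and the coding lengths are 735 bases for C1qa, 759 for C1qb and 738 for C1qc. The coding sequences are far from identical, at 56.8% of aligned bases for C1qa and C1qb, 56.0% for C1qa and C1qc and 60.8% for C1qb and C1qc. The 3′ ends of the transcripts, near which molecules are counted, were not compared.

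The feature that the 3 chains share is the collagen repeat, in which a glycine codon (GGN) opens each unit of 3 codons. The longest unbroken runs in the GENCODE M21 coding sequences are shown with the glycine codons in capitals.
C1qa, codons 62 to 109: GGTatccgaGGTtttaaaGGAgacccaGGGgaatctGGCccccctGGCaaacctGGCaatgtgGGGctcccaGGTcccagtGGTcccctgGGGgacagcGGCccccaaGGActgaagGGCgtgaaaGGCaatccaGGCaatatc
C1qb, codons 31 to 117: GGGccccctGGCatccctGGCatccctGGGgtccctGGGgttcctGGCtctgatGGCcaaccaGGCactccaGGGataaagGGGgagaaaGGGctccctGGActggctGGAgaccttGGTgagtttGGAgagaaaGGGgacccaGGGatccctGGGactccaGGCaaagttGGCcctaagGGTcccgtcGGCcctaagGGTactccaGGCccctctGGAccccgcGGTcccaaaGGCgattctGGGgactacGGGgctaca
C1qc, codons 68 to 115: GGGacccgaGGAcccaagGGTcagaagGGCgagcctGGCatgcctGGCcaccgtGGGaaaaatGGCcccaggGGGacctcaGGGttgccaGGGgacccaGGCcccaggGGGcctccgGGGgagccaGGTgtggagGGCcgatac
The run held 29 units in C1qb and 16 units in each of C1qa and C1qc.

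Because the 3 genes move together in the values below, the bases before their start sites are shown for the 2 genes with a RefSeq promoter entry (GRCm38.p6, minus strand). The 250 bases before each RefSeq start were searched on both strands for a MAF core (TGCTGAC), a PU.1 core (GAGGAAGT), an interferon-stimulated response element core (GAAA, any 2 bases, GAAA), a STAT core (TTCNNNGAA) and a TATA box (TATAAA). Capitals mark the only match. For C1qc only the 99 bases that lie before the GENCODE gene start are shown, since the RefSeq start lies inside the GENCODE gene.
C1qb, chr4:136886201-136886450: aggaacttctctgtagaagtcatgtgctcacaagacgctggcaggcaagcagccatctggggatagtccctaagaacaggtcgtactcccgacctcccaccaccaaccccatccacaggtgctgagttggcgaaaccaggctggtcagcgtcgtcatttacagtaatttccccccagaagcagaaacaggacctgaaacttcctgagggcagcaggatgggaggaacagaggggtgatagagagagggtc
C1qc, chr4:136893066-136893164: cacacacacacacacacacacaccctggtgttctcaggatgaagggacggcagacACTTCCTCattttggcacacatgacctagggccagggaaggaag
The C1qc match is the PU.1 core read on the opposite strand, at positions -44 to -37 from the GENCODE gene start (-195 to -188 from the RefSeq start), and 2.44% of 32851 RefSeq promoter windows held such a match. The other cores were found in 3.81% (MAF), 2.98% (interferon response), 7.02% (STAT) and 12.4% (TATA) of all windows and in neither C1q window. A match is a run of letters and not a measured binding site.

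The 2021 library held 3214 barcodes with a median of 2157.5 UMIs (502 to 18653), of which 3185 were kept. Cells were clustered without the 3 members and without the complement and transcription factor genes described further on, and clusters were named "-like" from marker genes. The sorted cells were a mixture: macrophage-like cells numbered 385 (12.1% of kept cells), beside 806 conventional dendritic cell (DC)-like, 478 monocyte-like, 484 neutrophil-like, 385 T lineage-like, 297 NK and ILC-like (natural killer cells and innate lymphoid cells), 214 B lineage-like and 11 basophil and mast cell-like cells. Another 125 cells stayed unnamed, in a cluster led by genes of dividing cells and a small cluster led by Elane and Prtn3. The CD64 sort sets these numbers, so they are not shares of the thymus.

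The macrophage-like class joined 2 clusters. The smaller (76 cells) was led by Gdf15, Vcam1, Slc40a1 and Spic and had 15 of 20 macrophage markers raised. The larger (309 cells) had 13 raised, but its 10 leading genes held only 1 of the macrophage markers (Pf4) beside 2 markers of serous cavity macrophages (Prg4, Alox15). It was named by counting serous cavity macrophage markers as macrophage markers, a choice made after the clusters were seen. Its name is therefore less firm than that of the smaller cluster, and values are given for each.

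C1q transcripts were concentrated in the macrophage-like cells. These cells held 13.4% of all UMIs and 88.1% of the 9162 C1q UMIs. In them C1qa, C1qb and C1qc ranked 1st, 3rd and 2nd of 10524 genes by the log2 ratio of CPM (UMIs of a gene over all UMIs of the same cells, scaled to 1e6) in macrophage-like over all other named classes, with 10 CPM added to both sides, at 5.45, 5.25 and 5.27. Of all genes compared, 4.87% were at least 2-fold higher and 2.87% at least 2-fold lower. By level within macrophage-like cells the same genes ranked 51st, 60th and 94th.

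C1qa was counted at 2740 CPM in macrophage-like cells (3124 UMIs; exact Poisson 95% interval 2644 to 2837). C1qb was at 2462 CPM (2371 to 2554) and C1qc at 1879 CPM (1801 to 1961). The order C1qa, C1qb, C1qc held beyond counting error, and since the 3′ chemistry counts each molecule once near its poly(A) end, no length scaling was applied. How well each transcript is captured was not measured, so the order of UMIs may differ from that of RNA molecules.

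Summed over the 3 genes, the level was 7081 CPM (6927 to 7237) in macrophage-like cells and at most 356 CPM in any other class. The next classes were B lineage-like cells at 356 CPM (305 to 414) and T lineage-like cells at 286 CPM (250 to 326), whose intervals overlap. Monocyte-like cells followed at 175 CPM (150 to 202), the unnamed cells at 157 CPM (130 to 186) and NK and ILC-like cells at 143 CPM (104 to 191), and these neighbours also overlap. Neutrophil-like cells at 94.9 CPM (77.9 to 115) and conventional DC-like cells at 83.0 CPM (72.7 to 94.4) were lowest and overlap each other. Basophil and mast cell-like cells had 0 C1q UMIs in 11330 UMIs, which allows up to 326 CPM by the exact interval.

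**Figure D1:**
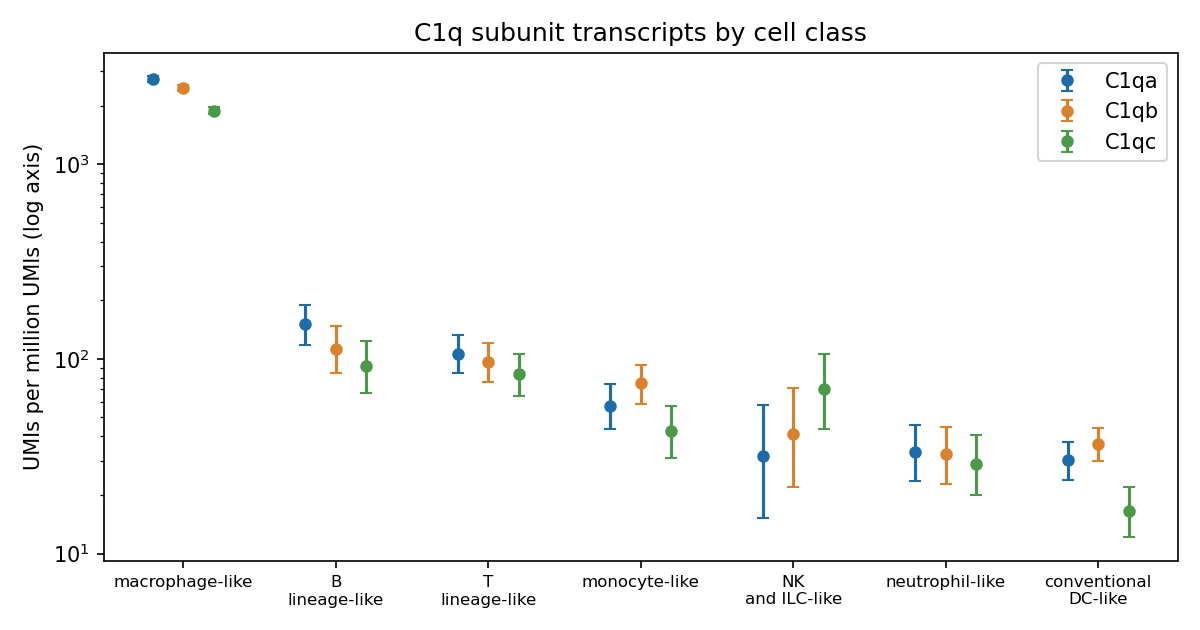
Level of C1qa, C1qb and C1qc in each cell class of the 2021 library, in CPM on a log axis. Points are the summed counts of a class and bars are exact Poisson 95% intervals (counting error only). All 3 genes lie between 1879 and 2740 in macrophage-like cells and at or below 151 in every other class plotted.

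In single cells the picture was the same. Of the 385 macrophage-like cells 301 had at least 1 C1q UMI (78.2%; exact binomial 95% interval 73.7 to 82.2) as had 75.5% of the 261 that could be thinned to 2000 UMIs (69.8 to 80.6). After thinning, C1qa was found in 68.6% of them, C1qb in 67.4% and C1qc in 64.8%. Neutrophil, B lineage, T lineage and NK and ILC-like cells, pooled as classes that should lack these transcripts, had a C1q UMI in 10.7% of 1380 cells (9.07 to 12.4; median depth 1280 UMIs against 2479 in macrophage-like cells), and in 12.8% of 400 thinned cells (9.64 to 16.4). Their summed level was 202 CPM (185 to 220).

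Dendritic cells are a described source of C1q, and monocytes are a source of macrophages, so both were set against this background. Thinned conventional DC-like cells had a C1q UMI in 6.78% of 723 cells (5.06 to 8.86; 10.0% unthinned, median depth 3313) and thinned monocyte-like cells in 10.5% of 239 (6.88 to 15.1; 12.6% unthinned, median depth 2000). Neither share is above the pooled background, so no expression is read from them. Both classes are mixed. In a finer clustering (resolution 1.0), a nonclassical monocyte-like cluster of 191 cells had 274 CPM (222 to 336; pooled background 202) and a classical one of 265 cells 87.2 CPM. A conventional DC-like cluster of 452 cells had 179 CPM (159 to 201), and a plasmacytoid DC-like one of 228 cells 45.1 CPM. Thinned shares of 15.7% (7.02 to 28.6; nonclassical) and 10.5% (7.73 to 13.9; 452-cell cluster) overlap the pooled background. That background was itself uneven, and the conventional DC-like share lies below it but above that of neutrophil-like cells: thinned shares were 22.4% of 85 B lineage-like cells (14.0 to 32.7), 20.4% of 113 T lineage-like cells (13.4 to 29.0) and 4.10% of 195 neutrophil-like cells (1.79 to 7.92). Unthinned shares in these classes were 16.4%, 16.1% and 5.79%. NK and ILC-like cells, at 7.41% unthinned, left 7 cells deep enough to thin. A difference of that size between classes is larger than counting error, so the background was not a single uniform level.

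The C1q UMIs outside the macrophage-like class sat in few cells. Of 2800 such cells, 310 had any: 200 cells had 1 or 2 UMIs and held 23.2% of these UMIs, 87 cells had 3 to 9 and held 39.2%, and 23 cells had 10 or more and held 37.7%. The summed level of macrophage marker genes moved with them. Summed over 20 macrophage markers, the level was 686 CPM in cells with no C1q UMI, 1366 CPM with 1 or 2, 3627 CPM with 3 to 9 and 5863 CPM with 10 or more, with 18, 16, 17 and 16 of the 20 markers detected. In the 4 background classes alone the corresponding levels were 494, 1561, 4761 and 6047 CPM. In macrophage-like cells Apoe held 12263 of the 16142 UMIs of these markers, so the sum leans on 1 gene. The part of Apoe in the sums of the other cells was not separated. In their 13 cells with 10 or more C1q UMIs Marco, Pf4, Gpnmb and Cd5l were at 0. The median doublet score also moved in these 4 classes, from 0.0186 in cells with no C1q UMI to 0.195 in the 13 cells with 10 or more, whose median depth was 5145 UMIs. The part of doublets, attached debris and free RNA in these counts was not tested.

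Within the macrophage-like class, C1q was far from even. Per cell the quartiles were 1, 14 and 33 C1q UMIs and the highest count was 159. The 226 cells with 10 or more UMIs held 95.9% of the class's C1q UMIs, while 84 cells had none. All 84 belonged to the larger cluster, where they made up 27.2% of cells. In the smaller cluster every cell had at least 3, with quartiles of 21, 32 and 40. Depth was similar in cells without C1q (median 2400.5 UMIs) and in those with 10 or more (2637.5).

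The 84 cells without C1q had a lower macrophage marker level and a higher classical monocyte marker level than the other cells of their cluster. Their macrophage marker sum was 2503 CPM (2300 to 2719), against 14126 CPM (13844 to 14412) in the 225 cells of that cluster with C1q and 2403 CPM (2303 to 2507) in monocyte-like cells without C1q. Of the 10091 macrophage marker UMIs of the whole larger cluster 8200 were Apoe, so this sum leans on 1 gene. Slc40a1, Marco, Cd163, Gpnmb and Cd5l were at 0 in the 84 cells without C1q. Their classical monocyte markers (10 genes such as Ly6c2, Ccr2 and Plac8) summed to 7567 CPM (7212 to 7936). In monocyte-like cells without C1q the same genes summed to 7408 CPM (7231 to 7589). That cluster was named from nonclassical markers such as Ace, Adgre4 and Treml4, but the classical marker F13a1 was also among its 10 leading genes. At resolution 1.0 there was a classical monocyte cluster of 265 cells and a nonclassical one of 191. In neutrophil-like cells without C1q the sum was 6750 CPM (6593 to 6908), so this sum is not particular to monocytes. Across the larger macrophage-like cluster the classical monocyte marker sum was lower in each step of C1q counts, at 6113 CPM with 1 or 2 UMIs, 4656 CPM with 3 to 9 and 3490 CPM with 10 or more. The C1q level and this marker level thus ran in opposite directions inside the cluster, and the part of monocyte-like cells in it was not tested.

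**Figure D2:**
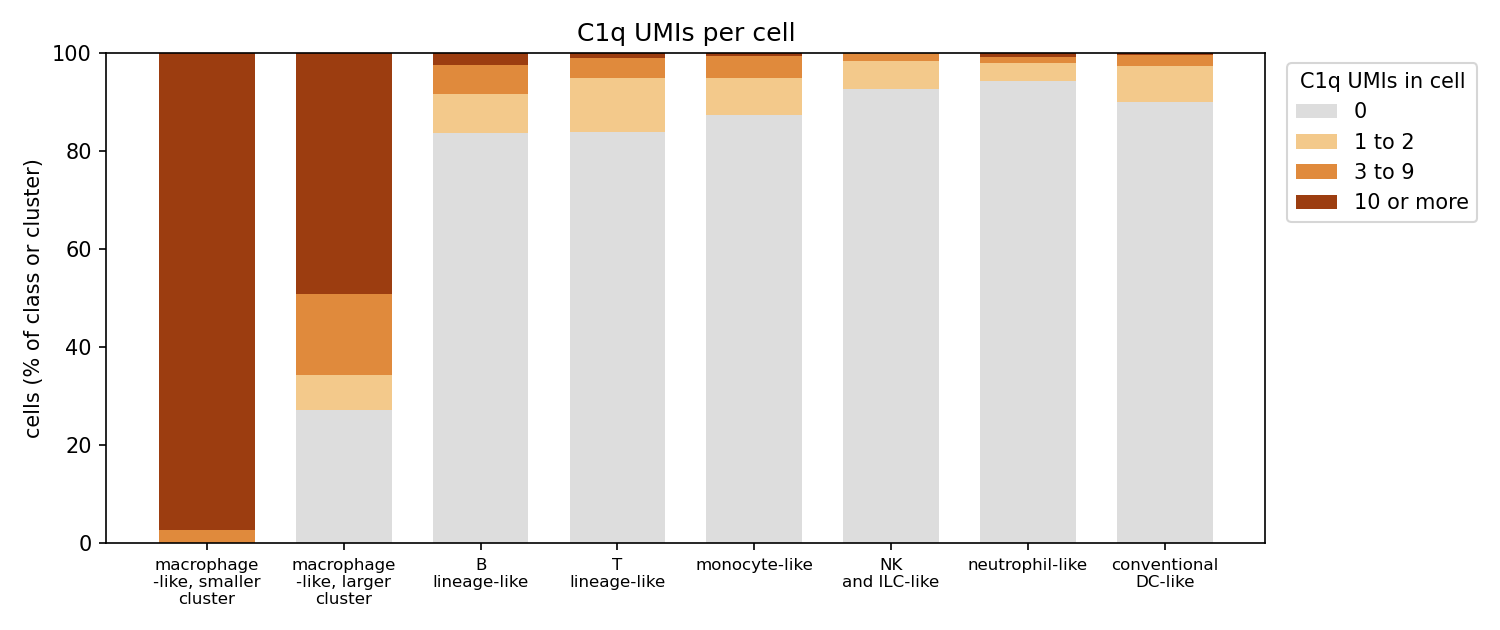
Share of cells (percent of each class or cluster, vertical axis) with 0, 1 to 2, 3 to 9, or 10 or more C1q UMIs, unthinned. In the smaller macrophage-like cluster 97.4% of cells had 10 or more, in the larger 49.2% did and 27.2% had none, and in all other classes plotted most cells had none.

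Within the class the level was lower in deeper cells. Macrophage-like cells of 500 to 1000 UMIs held 16601 CPM of C1q (44 cells), those of 1000 to 2000 held 9743 (80 cells), those of 2000 to 4000 held 7064 (179 cells) and those of 4000 or more held 5833 (82 cells). The share of cells without C1q did not follow this order, at 9.09%, 23.8%, 26.8% and 15.9%. Summed levels are weighted to the deeper cells, and the mean of the cells' own CPM was 8537.

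The 3 transcripts were found together. In the 261 thinned macrophage-like cells, 149 had all 3 (57.1%; 50.8 to 63.2), 29 had 2, 19 had 1 and 64 had none. If each gene were found independently at its own share, 78.2 cells would hold all 3, 116 would hold 2, 57.3 would hold 1 and 9.41 would hold none. The ratio of counted to independent for all 3 was 1.91 (1.61 to 2.24). Only 4 cells had C1qa alone, 7 had C1qb alone and 8 had C1qc alone.

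An excess was seen in the larger cluster, whose cells ranged from none to many C1q UMIs. There 105 of 212 thinned cells had all 3 against 46.2 under independence, a ratio of 2.27 (1.86 to 2.75). In the smaller cluster, where nearly every cell was positive, 44 of 49 had all 3 against 43.2, a ratio of 1.02 (0.740 to 1.37). C1qb was found in 46 of these cells, so no more than 46 could hold all 3. That leaves little room for an excess, and none can be read as absent there. Counts of the genes also ran together over the 261 cells, with a Spearman rho of 0.88 for C1qa and C1qb, 0.84 for C1qa and C1qc and 0.81 for C1qb and C1qc. These values describe cells of 1 library thinned to 1 depth and are not evidence over animals.

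Joint detection was not particular to macrophage-like cells. Unthinned, all 3 genes were found in 28 of 1380 cells of the pooled background classes, where independent detection gives 0.262, a ratio of 107 (71.1 to 155). These were 9 B lineage-like, 12 T lineage-like, 7 neutrophil-like and 0 NK and ILC-like cells. All 3 were also found in 11 conventional DC-like and 14 monocyte-like cells. Classes differ widely in their share of positive cells, so their ratios were not compared.

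**Figure D3:**
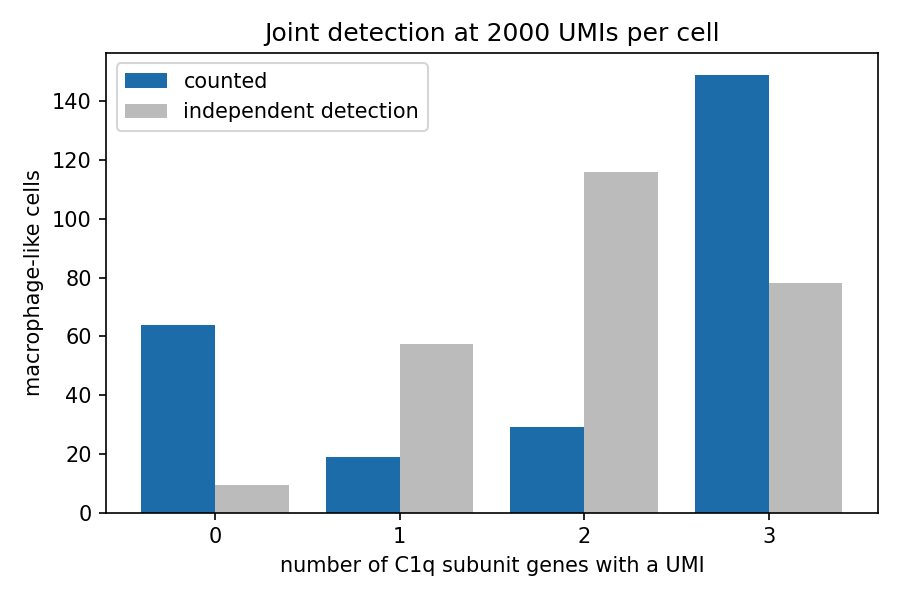
Number of macrophage-like cells (of 261, thinned to 2000 UMIs) with 0, 1, 2 or 3 of the C1q subunit genes, as counted and as independent detection at the same shares would give. Counted cells exceed the independent number at 0 (64 against 9.41) and at 3 (149 against 78.2) and are fewer at 1 and 2.

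The makeup of the C1q transcripts was close to, but not exactly, constant. Among the C1q UMIs of macrophage-like cells C1qa took 38.7%, C1qb 34.8% and C1qc 26.5%. The smaller cluster held more C1qc, at 31.1% (29.3 to 33.0), than the larger, at 24.6% (23.5 to 25.8). C1qa (36.6% against 39.6%) and C1qb (32.2% against 35.8%) were correspondingly lower in the smaller cluster. Averaged cell by cell over cells with 10 or more C1q UMIs, C1qc took 31.6% in 74 cells of the smaller and 25.7% in 152 cells of the larger cluster, so the shift was not carried by a few cells rich in C1q.

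Single cells differed a little more in makeup than counting alone gives. Over the 226 cells with 10 or more C1q UMIs the SD of the C1qa share was 11.7 percentage points where binomial counting gives 10.0. For C1qb it was 11.3 against 9.79 and for C1qc 11 against 9.10. Most of the spread between cells was therefore of the size of counting error.

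Outside the class the makeup was close to this in some groups of cells and further from it in others. The pooled background classes held 37.2% C1qa, 32.8% C1qb and 30.1% C1qc. The 23 other cells with 10 or more UMIs held 39.0%, 35.1% and 25.9%. C1qb led in conventional DC-like cells (44.0%; 37.5 to 50.6) and in monocyte-like cells (42.8%; 35.4 to 50.4), while C1qb was 34.8% in macrophage-like cells (33.7 to 35.8). C1qc was 19.8% in conventional DC-like cells (14.9 to 25.5). NK and ILC-like cells had 45 C1q UMIs, of which 48.9% were C1qc (33.7 to 64.2).

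**Figure D4:**
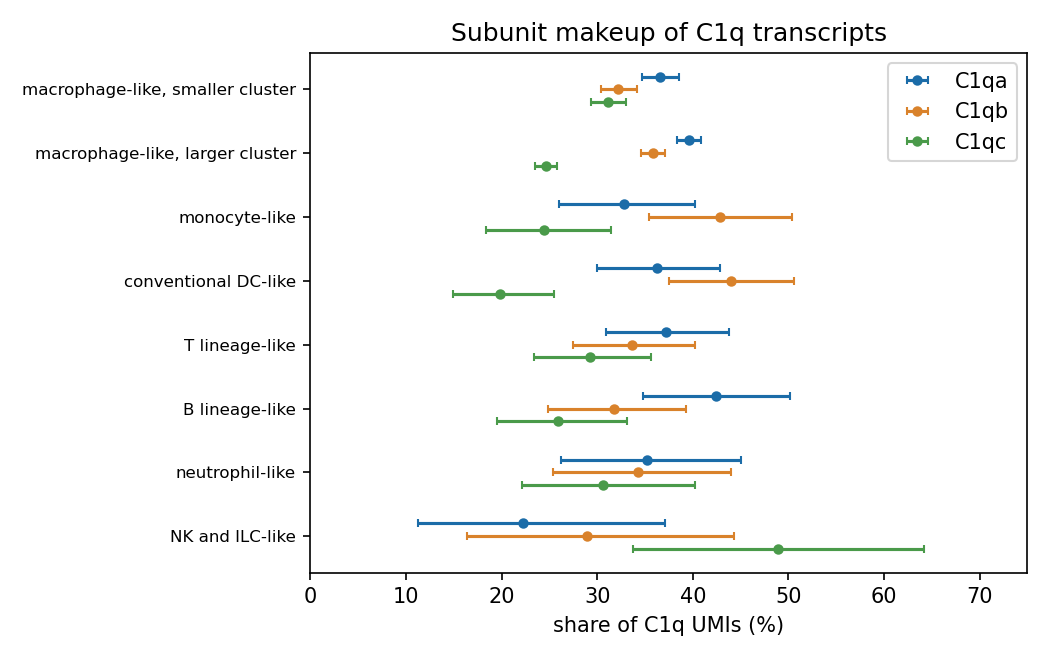
Share of C1qa, C1qb and C1qc among the C1q UMIs of each class or cluster (percent, horizontal axis), with exact binomial 95% intervals (counting error only). C1qc is 31.1% in the smaller and 24.6% in the larger macrophage-like cluster, and intervals are wide in the classes with few C1q UMIs.

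By level, the smaller cluster stood above the larger, at 9914 CPM (9521 to 10319) against 6321 CPM (6157 to 6487), a log2 difference of 0.65 (0.58 to 0.72). C1qc differed most, at 3085 CPM against 1556 CPM. C1qa was at 3632 CPM against 2500 CPM and C1qb at 3197 CPM against 2264 CPM. In the smaller cluster 12 of 12 neutrophil markers were detected, at 14533 CPM against 513 CPM in the larger and 462988 CPM in neutrophil-like cells, but 2 of its cells held nearly all of these 3505 UMIs, the other 74 holding 139. Without these 2 cells, chosen for at least 50 neutrophil marker UMIs, the C1q level was 10076 CPM (9671 to 10493).

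Clustering the macrophage-like cells alone, again without the C1q genes and a step added after the data were seen, gave 4 sub-clusters. They are called here by a gene that was high in them. The Ccl12 sub-cluster (82 cells, led by H2-M2, Mmp2 and Ccl12, a chemokine) had the highest C1q, at 13801 CPM (13318 to 14297), and none of its cells lacked C1q. The Vcam1 sub-cluster (95 cells) had the highest Vcam1, but its 10 leading genes did not include it. They were S100a8, Wfdc21, S100a9, Gzma, Ngp, Gdf15, Camp, Nkg7, Apol7c and Lcn2, of which 5 are neutrophil and 2 NK and ILC markers. Its name was taken from the level of Vcam1. Among the sub-clusters it also had the highest Spic (324 CPM), Slc40a1 (903 CPM) and macrophage marker sum (25111 CPM). Its C1q level was 9962 CPM (9597 to 10338), and 92 of its cells had C1q. The Prg4 sub-cluster (61 cells, led by Saa3, Prg4, Slpi and Alox15) had 5286 CPM (4976 to 5610), with C1q in 55 cells. The Ly6c2 sub-cluster (147 cells, led by Cxcl9 and Ly6c2) had 2566 CPM (2417 to 2722), with C1q in 72 cells. It held 75 of the 84 macrophage-like cells without C1q. Its 20 macrophage markers summed to 3946 CPM, against 11640 to 25111 CPM in the other sub-clusters. Its classical monocyte markers, at 6640 CPM, were near the 7271 CPM of monocyte-like cells. Its macrophage-like name is therefore weak, and the class-wide C1q levels, detection, joint detection and correlations over cells include these cells.

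C1qa followed the order of summed C1q at 5576, 3695, 1892 and 1047 CPM, as did C1qb at 4913, 3219, 2029 and 901 CPM. C1qc was at 3311 (3077 to 3559), 3048 (2847 to 3259), 1365 and 618 CPM, so the Ccl12 and Vcam1 sub-clusters overlapped for C1qc alone. Its share of C1q UMIs was 30.6% in the Vcam1 sub-cluster and 24% in the Ccl12 sub-cluster. In the Prg4 sub-cluster C1qb, at 38.4% (35.5 to 41.3), was as frequent as C1qa, at 35.8% (32.9 to 38.7). The highest C1q did not go with the highest level of the markers Vcam1 (2625 CPM in the Vcam1 sub-cluster, 483 CPM in the Ccl12 sub-cluster), Spic (324 and 35.8 CPM) and Slc40a1, the iron exporter ferroportin (903 and 49.2 CPM).

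The Vcam1 sub-cluster also held neutrophil markers at 12612 CPM (419 to 536 CPM in the other sub-clusters) and NK and ILC markers at 1757 CPM (92.9 to 192 CPM), with a median of 1 and 0 UMIs per cell. The classical monocyte markers summed to 1607 CPM in the Ccl12, 1931 CPM in the Vcam1, 5003 CPM in the Prg4 and 6640 CPM in the Ly6c2 sub-cluster, the reverse of the order of C1q. The part of these other transcripts in the C1q levels was not tested.

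**Figure D5:**
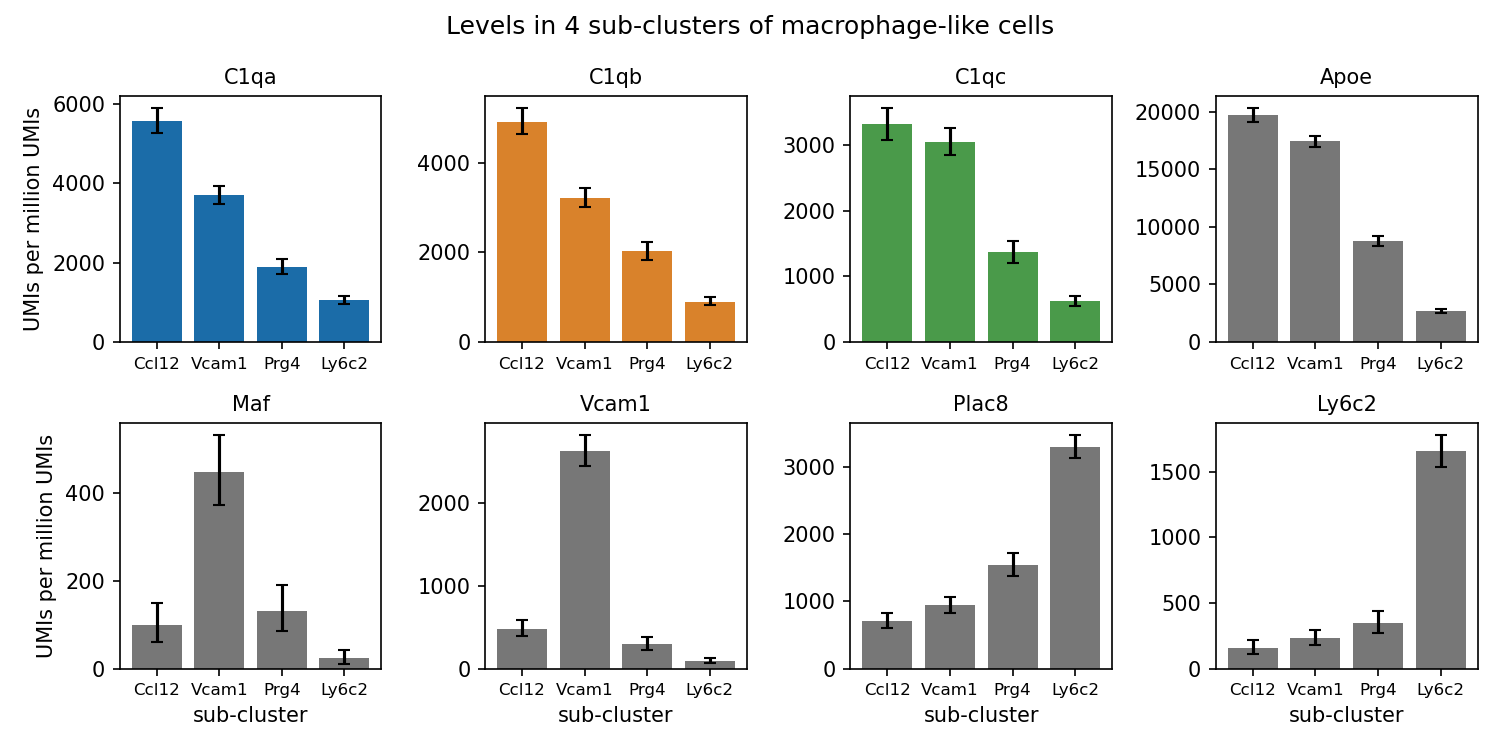
Levels of C1qa, C1qb, C1qc, Apoe, Maf, Vcam1, Plac8 and Ly6c2 in 4 sub-clusters of macrophage-like cells, in CPM, with exact Poisson 95% intervals (counting error only) and a separate axis per gene. C1q and Apoe are highest in the Ccl12 and Vcam1 sub-clusters, Maf and Vcam1 in the Vcam1 sub-cluster, and Plac8 and Ly6c2 in the Ly6c2 sub-cluster.

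Over the 14 clusters of all kept cells, the 3 genes were closely alike (Pearson r of log2(CPM + 10) of 0.983 for C1qa and C1qb, 0.973 for C1qa and C1qc and 0.984 for C1qb and C1qc). The clusters share 1 library and its free RNA. Summed C1q was at 6321 and 9914 CPM in the 2 macrophage-like clusters and at 356 CPM or less in every other cluster. The r values thus take in a wide contrast between these 2 clusters and the rest, and r within the rest was not computed. Of 3323 other genes with at least 100 CPM in a cluster, the 10 most like summed C1q were Apoc1 (0.959), Selenop (0.940), Glul (0.933), Apoe (0.930), Axl (0.919), Ms4a7 (0.917), Hebp1 (0.917), Igf1 (0.915), Prxl2b (0.909) and Vcam1 (0.901). Apoc1 and Apoe encode lipoprotein components, and Axl is a receptor for apoptotic cells. Of the 10, Apoe, Axl, Ms4a7 and Vcam1 were also among the markers that named the class. Apoe was at 10754 CPM in macrophage-like cells and 635 CPM in the other named classes, Apoc1 at 765 and 41.8 CPM, and Igf1, insulin-like growth factor 1, at 208 and 7.02 CPM.

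Cell by cell, over the 261 thinned macrophage-like cells and 1022 genes, 25 genes had a Spearman rho with summed C1q of at least 0.3 and 24 of at most -0.3. The most positive were Apoe (0.68), Itm2b (0.57), Ctsd (0.54), Ctsb (0.52), Cd63 (0.51), Ms4a7 (0.50), Ftl1 (0.49), Vcam1 (0.47), Timp2 (0.46) and Selenop (0.43). Ctsd and Ctsb encode lysosomal cathepsins, Cd63 a membrane protein of late endosomes and lysosomes, and Ftl1 the ferritin light chain. Cells without C1q had a mean of 3.08 thinned Apoe UMIs and cells with C1q 26.4, and for Ctsd the means were 0.156 and 1.90. All 64 thinned cells without C1q lay in the larger cluster, and 75 of the 84 unthinned ones in the Ly6c2 sub-cluster. The rhos of both signs thus run across sub-clusters as well as within them, and those within a sub-cluster were not computed. Apoe, Ms4a7 and Vcam1 are also among the markers that named the class.

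The most negative were Plac8 (-0.57), Cd52 (-0.54), S100a6 (-0.53), Tmsb10 (-0.52), S100a4 (-0.48), Ifitm3 (-0.46), Ifi27l2a (-0.43), Ly6c2 (-0.41), Marcksl1 (-0.40) and S100a11 (-0.39). Plac8 and Ly6c2 are classical monocyte markers, Ifitm3 and Ifi27l2a are interferon-inducible, and 3 of the 10 encode S100 calcium-binding proteins. Mean thinned UMIs without and with C1q were 7.78 and 3.15 for Plac8, 19.1 and 8.01 for Ifi27l2a, and 3.84 and 1.31 for Ly6c2.

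The proteases that C1q activates were almost absent from the same cells. Of 6 genes for C1r, C1s, C1r-like and the C1 inhibitor, C1rb, C1s2 and Serping1 had 0 UMIs in all kept cells, which allows up to 0.353 CPM each (3 counts). C1s1 had 1 UMI, C1ra 6 and C1rl 26. Only C1rl had the 20 UMIs needed for a comparison, and it was below 2-fold (3.51 CPM in macrophage-like cells and 2.90 CPM in the other named classes).

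Of 21 genes for later classical, lectin and alternative components, 8 could be compared and 6 were at least 2-fold higher in macrophage-like cells, with a median log2 ratio of 1.68 against 0.05 over all genes. Cfb, factor B of the alternative pathway, was at 175 CPM (151 to 201) against 9.31 CPM. Cfp, properdin, which stabilises the alternative convertase, was at 355 CPM (321 to 392) against 76.1 CPM. Fcna, ficolin A, was at 74.5 CPM against 2.59 CPM, and C2, the target of C1s, at 18.4 CPM against 1.68 CPM. C3, the central component, was at 313 CPM (281 to 347) against 130 CPM, but neutrophil-like cells held 431 CPM. C4b was at 62.3 CPM (71 UMIs) and had none in the other named classes, at least 136-fold higher against 3 counts over the group. C4a is a near-identical copy of C4b, and reads can be split or lost between them. Fcnb, ficolin B, was the 1 gene lower (2.87% over all genes compared), with none in macrophage-like cells and 204 CPM in neutrophil-like cells.

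These components were not spread over the sub-clusters as C1q was. C4b lay in the Prg4 sub-cluster, at 322 CPM against 13.4 CPM or less in the others. Cfb was at 340 CPM in the Ccl12 sub-cluster, 235 CPM in the Ly6c2 sub-cluster, where C1q was lowest, 63.4 CPM in the Prg4 and 32.0 CPM in the Vcam1 sub-cluster. C3 ran from 461 CPM in the Ccl12 and 392 CPM in the Ly6c2 to 142 CPM in the Vcam1 sub-cluster. Between the 2 clusters of the class, Cfp was at 688 CPM in the smaller and 266 CPM in the larger, and Fcna at 207 and 38.9 CPM.

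Of 16 receptors for C1q and complement fragments, 13 could be compared. Of these, 3 were at least 2-fold higher (4.87% over all genes compared), with a median log2 ratio of 0.27. C3ar1, the C3a receptor, was at 78.9 CPM against 1.83 CPM. Lrp1, an uptake receptor described as a partner of calreticulin, was at 206 CPM against 51.1 CPM, with 230 CPM in monocyte-like cells. Lair1, an inhibitory receptor that binds collagen and C1q, was at 142 CPM against 25 CPM. Calr (455 and 302 CPM), C1qbp (110 and 128 CPM), Cd93 (6.14 and 5.95 CPM), and the complement receptor 3 and 4 chains Itgam (87.7 and 107 CPM) and Itgax (177 and 83.9 CPM) were not past 2-fold with 10 CPM added to both sides. Itgax lay just under that limit, at a log2 ratio of 0.99.

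Of 7 membrane and fluid regulators 2 could be compared. Clu was lower (2.87% over all genes compared), with none in macrophage-like cells against 10.7 CPM. All 70 of its UMIs were in conventional DC-like cells (25.1 CPM), and every other class also had none. Cd55 was at 12.3 CPM against 14.6 CPM. Of 26 further genes with a C1q-like domain 3 could be compared, C1qtnf12, Emilin1 and Emilin2, and none was 2-fold different. The rise of C1qa, C1qb and C1qc was thus not shared by any compared gene of their domain family.

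Of 15 myeloid transcription factors, all compared, 7 were at least 2-fold higher (4.87% over all genes compared) and none lower, with a median log2 ratio of 0.87. Maf was at 162 CPM (140 to 187) against 11.7 CPM, and at 19.4 CPM in monocyte-like cells. Nr1h3, the liver X receptor alpha, was at 75.4 CPM against 8.09 CPM. Cebpa (183 and 34.3 CPM) and Klf4 (305 and 119 CPM) were also higher. Spi1, which encodes PU.1, was at 488 CPM against 436 CPM. Maf was highest in the Vcam1 sub-cluster (448 CPM), whereas the Ccl12 sub-cluster, with the most C1q, had 98.4 CPM, the Prg4 sub-cluster 132 CPM and the Ly6c2 sub-cluster 23.2 CPM.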

How the data were processed

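The unit is the count: raw UMI counts per gene and barcode as deposited, made by the authors with Cell Ranger 6.0.0 (2021) and 8.0.0 (2024), per the file headers. The submitters' processing notes name mm10, whose coordinates are those of GRCm38. The annotation and the handling of intronic reads are not given in the sources used here. No gene or barcode list was used for the 2024 library, so shared barcodes were not counted.

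Barcodes with at least 500 UMIs, 300 genes and at most 10% mitochondrial UMIs were kept (3188 of 3214). Scrublet in scanpy 1.11.5 called 3 doublets at an expected 6%. These were dropped, and most doublets probably remain. On the log scale, with each cell's total set to 10000, 2000 variable genes, 30 components and 15 neighbours gave Leiden clusters at resolution 0.5. A cluster was named from at least 3 raised markers (2-fold over the other clusters) of 16 classes, leading genes permitting. Levels are UMIs summed over cells, scaled to 1e6 UMIs (CPM). Shares were compared after thinning to 2000 UMIs. The comparison of genes needed 20 UMIs over both sides together, so a gene could enter through the macrophage-like cells alone. To both sides 10 CPM was added. Named genes are the members, members of the 6 lists, and the 10 most like C1q over clusters or, at a rho of at least 0.3, cells. 1 listed gene is counted but its values are not reported here. Scripts were tested on simulated data. Members and lists were chosen with earlier results of these data known. Alternatives changed the filter, doublets, resolution, clustering genes, classes, thinning, averaging and list settings.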

Additional observations from a re-analysis of the deposited data

How the results depend on the processing

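Of 39 alternatives to the main values, 20 gave a value inside the main value's 95% counting interval (for the gene count, within 1.5 times) and 19 one outside it. A reversed direction could be scored only for the difference between the macrophage-like clusters, and none was found there. The C1q level of macrophage-like cells (7081 CPM) was 10469 under the stricter filter (1000 UMIs, 500 genes, 5% mitochondrial), 8046 without the 6% of cells with the highest doublet scores, 6840 at resolution 1.0, 7699 with the members and lists left in the clustering, 8537 as the mean of the cells' own CPM and 9914 without the larger cluster (added after seeing the data). Under the stricter filter the larger cluster went unnamed, so all 3-gene detection (57.1%) became 95.2%, the joint ratio (1.91) 1.0, the C1qa share (38.7%) 35.8% and the log2 difference between clusters (0.65, there of other clusters) 0.47. That difference was 0.83 without the high doublet scores and 0.75 as mean CPM. Detection of all 3 was 63.2% with the members left in, 47.2% at 1000 UMIs and 89.8% without the larger cluster. The background (202 CPM) was 239 under the stricter filter, 133 without the high doublet scores, 147 with classes set by marker UMIs and 169 without B lineage-like cells (added after seeing the data). The count of listed genes at least 2-fold higher was 16, and 16 to 20 under the alternatives. No paired analysis was possible because the gene values come from 1 library. Depth limits shares in NK and ILC-like cells, of which 7 reached 2000 UMIs.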
